A study of Mus musculus with 2 samples.

Results

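The genes described here are 54 regulators of chromatin: Polycomb and trithorax group proteins, the enzymes that write and remove DNA methylation, nucleosome remodellers with their histone deacetylases, and CTCF with cohesin. They were taken from a list of symbols, matched to the Ensembl identifiers of the deposited tables, and all 54 were found among 43346 Ensembl genes, of which 21474 are protein-coding. No level was used as a rule for choosing the genes, but they were chosen with earlier results of these data known. The material was limb of healthy B6NCrl mouse embryos at day 13.5, with embryos of both sexes pooled and no treatment or altered allele. Total RNA longer than 200 nucleotides was sequenced from 2 biological replicates, which form 1 group, so no condition is compared and the comparisons are between genes and between the replicate libraries. The tables held 31252996 expected counts on Ensembl genes in replicate 1 and 42301381 in replicate 2.

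Polycomb repressive complex 2 (PRC2) methylates histone H3 on lysine 27, and Polycomb repressive complex 1 (PRC1) ubiquitinates histone H2A and binds the methyl mark. Trithorax group proteins oppose them through methylation of H3 on lysine 4 and through remodelling of nucleosomes. In the limb bud Polycomb complexes are best known for keeping Hox genes silent where they should not act. Most subunits come in paralogs that take the same place in a complex, so that the ratio of the paralogs bears on which form of a complex a tissue can make.

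The libraries carried the genes that mark limb. All 8 limb mesenchyme markers, 4 cartilage, 4 muscle, 4 ectoderm and 5 dividing-cell markers were at 1 TPM (the usual unit of relative transcript abundance, corrected for length and depth) or more in both libraries. None of 6 germ-cell and pluripotent-cell markers reached that level, and their summed level was 1.29 TPM in replicate 1 and 1.17 TPM in replicate 2. In this list Dppa3 had 0 counts in both libraries. Of 5 neuronal markers, Stmn2 was detected in both libraries, and of 4 heart markers Tnnt2, which embryonic skeletal muscle also uses. The 4 liver markers Alb, Afp, Apoa1 and Ttr summed to 38.7 TPM in replicate 1 and 5.66 TPM in replicate 2. The tissue is a mixture, so a lower level cannot be told apart from fewer cells that make the RNA.

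Of the 54 regulators, 53 (98.1%) were at 1 TPM or more in both libraries, against 61.0% of all protein-coding genes and 34.6% of all genes. At 10 TPM or more there were 46 regulators (85.2%), against 40.9% of protein-coding genes and 21.2% of all genes. At 100 TPM or more there were 7 (13.0%), against 7.48% of protein-coding genes and 3.93% of all genes: Hdac2, Hdac1, Dnmt3a, Uhrf1, Ctcf, Mtf2 and Ezh2. In complete coding transcripts alone, described below, the means of Ctcf (37.6 TPM), Mtf2 (21.5 TPM) and Ezh2 (81.9 TPM) were under 100 TPM. The one regulator under 1 TPM was Dnmt3l. The median regulator stood at 29.7 TPM, beside 20.6 TPM for the 13100 detected protein-coding genes, and 31 of the 54 lay above that second value. Since the list is made of genes with broad roles, these shares describe it and are not a test.

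**Figure D1:**
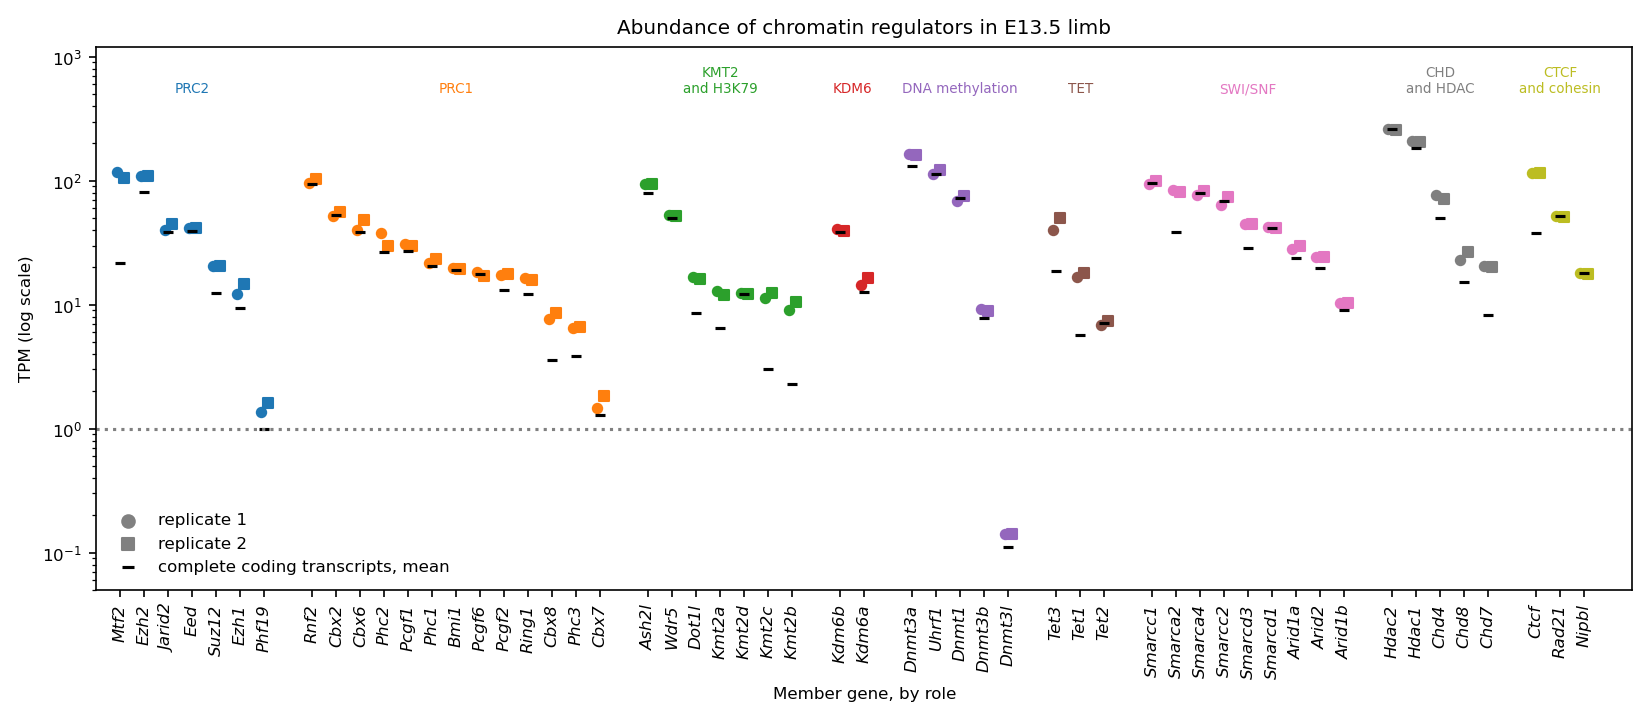
Level of each of the 54 regulators in TPM (log scale) by role, with circles for replicate 1, squares for replicate 2, black dashes for the mean level in complete coding transcripts, and a dotted line at 1 TPM. Hdac2 is highest at 263 and 258 TPM, Dnmt3l lies below the line at 0.14 TPM in both libraries, and the dash falls far below the points for Mtf2, Ctcf, Kmt2b and Kmt2c.

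Replicate error was judged from genes of like abundance. For a pair of paralogs the log2 ratio of TPM + 0.1 was taken in each library, and the pair is called past the spread when the sign did not change between libraries and the mean exceeded 2 times the combined spread, the spread of a gene being the root mean square replicate SD of the 500 genes nearest to it in level. Of 33 pairs within 17 families, 25 (75.8%) were past the spread. Of all 85798450 pairs of detected protein-coding genes, 89.4% were, so the share among paralogs is not above that of any pair of genes. A pair has 2 values and so 1 residual degree of freedom, and no p-value was computed. Families hold the listed genes only, so shares and orders leave out paralogs outside the list.

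A gene's TPM sums its transcripts, and short fragments or non-coding entries in the annotation can hold much of it. The level in complete coding transcripts, those annotated protein-coding with no truncated end, is therefore also given for the genes it lowers most. These transcripts held a median of 82.6% of the TPM of the regulators and 95.4% of that of detected protein-coding genes. Under 50% was held for 9 regulators (16.7%, against 13.1% of detected protein-coding genes): Mtf2, Kmt2b, Kmt2c, Ctcf, Tet1, Chd7, Tet3, Cbx8 and Smarca2. Recomputed on them, 31 of the 33 pairs were past the spread, against 90.4% of all 79638510 pairs of protein-coding genes at 1 TPM or more on that scale.

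In PRC2 the methyltransferase Ezh2 exceeded its paralog Ezh1. Ezh2 (chr6:47530139-47595341 in GRCm38, minus strand) measured 109 TPM in replicate 1 and 109 TPM in replicate 2. Ezh1 measured 12.2 and 14.6 TPM. The ratio was 8.13-fold for Ezh2 (log2 of Ezh1 over Ezh2 -3.02 ± 0.19, SD, n = 2), with 8.69-fold on complete coding transcripts. The core subunits were uneven at the RNA level: Eed, which reads the methyl mark, stood at 41.4 and 41.3 TPM, and Suz12, a scaffold of the complex, at 20.6 and 20.4 TPM (12.4 TPM on complete coding transcripts). Jarid2, an accessory subunit that helps recruit PRC2, measured 39.9 and 44.7 TPM.

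The Polycomb-like proteins Mtf2 and Phf19, which link PRC2 to DNA, differed widely as summed genes. Mtf2 measured 119 and 106 TPM, and Phf19, the lowest PRC2 member, 1.36 and 1.60 TPM on 86 and 147 expected counts. The ratio was 71.3-fold, and Mtf2 held 98.7% ± 0.25 (SD, n = 2) of the pair's TPM. Most of the Mtf2 level lay outside complete coding transcripts. Its leading transcript, Mtf2-208, is a truncated coding entry of 718 nucleotides with 50.04 and 39.9 TPM, while the complete Mtf2-201, of 4060 nucleotides, had 17.0 and 17.4 TPM. With complete coding transcripts alone Mtf2 stood at 18.4 and 24.6 TPM and the ratio was 20.4-fold, less than that of Cbx2 over Cbx7 on the same scale (39.0-fold). Phf1, a Polycomb-like gene outside the list, read 10.9 and 11.7 TPM. Phf19-201 led in both libraries but held 49.6% of the gene in replicate 1 and 83.5% in replicate 2.

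In PRC1 the catalytic subunit Rnf2 (RING1B) exceeded Ring1 (RING1A). Rnf2, the highest PRC1 member, measured 95.2 and 103 TPM and Ring1 16.4 and 15.8 TPM, a ratio of 6.12-fold. Rnf2 held 86.0% ± 0.98 (SD, n = 2) of their sum. Rnf2-201 supplied 94.8% and 93.1% of its gene, and the ratio on complete coding transcripts was 7.75-fold.

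The 4 listed PCGF subunits, which decide the variant of PRC1 that forms, lay within 2-fold of one another in summed TPM. Pcgf1, of the variant that carries Kdm2b and Bcor, measured 30.9 and 29.9 TPM. Bmi1 (PCGF4) measured 19.7 and 19.4 TPM, Pcgf6 18.3 and 17.2 TPM, and Pcgf2 (MEL18) 17.3 and 17.8 TPM. Pcgf1 exceeded Bmi1 by 1.55-fold, Pcgf6 by 1.71-fold and Pcgf2 by 1.73-fold, all past the spread. Bmi1, Pcgf6 and Pcgf2 were not past the spread from one another, with folds from 1.01 to 1.12. With complete coding transcripts Bmi1 over Pcgf2 (1.43-fold) and Pcgf6 over Pcgf2 (1.33-fold) were past it, and Pcgf1 over Pcgf2 was 2.02-fold. The order of the 4 depends on length: by expected counts, with no correction for length, Bmi1 held 44.2% of their sum and Pcgf1 15.2%. Outside the list, Pcgf3 read 19.3 and 21.8 TPM, and 2425 and 3658 expected counts, and Pcgf5 was lower than all of these at 4.85 and 4.84 TPM.

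Among the chromodomain subunits, which read methylated lysine 27, Cbx2 and Cbx6 made up most of the measured RNA. Cbx2 measured 52.1 and 55.5 TPM and Cbx6 40.2 and 48.4 TPM. Cbx8 measured 7.68 and 8.61 TPM, and Cbx7, the lowest PRC1 member, 1.47 and 1.83 TPM on 108 and 181 expected counts. Cbx2 held 49.96% ± 1.99 and Cbx6 41.0% ± 1.91 of the TPM of the 4 genes (SD, n = 2). Cbx2 exceeded Cbx7 by 31.0-fold and Cbx8 by 6.55-fold, and Cbx6 exceeded them by 25.4-fold and 5.37-fold. Cbx2 over Cbx6 was 1.22-fold, past the spread over both libraries but not in replicate 2 alone. Deposited estimates lay inside their own deposited credibility intervals in both libraries for 47 of the 54 regulators. Those of Dnmt1, Smarca4, Smarcc1, Smarcc2 and Hdac2 lay just above the upper bound. For Cbx7, as for Dnmt3l, the estimate lay below the interval, which ran from 1.75 to 5.31 TPM in replicate 1 and from 1.96 to 4.69 TPM in replicate 2. With the deposited posterior means the log2 ratio of Cbx2 over Cbx7 was 4.01 in place of 4.95. Cbx2-201 held 99.3% and 99.1% of Cbx2. Cbx8 was led by Cbx8-202, a non-coding entry of 789 nucleotides with 54.8% and 44.8% of the gene, and on complete coding transcripts Cbx2 over Cbx8 was 14.6-fold.

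The polyhomeotic subunits, which polymerise and hold Polycomb complexes together, were ordered Phc2, Phc1, Phc3. Phc2 measured 37.6 TPM in replicate 1 and 29.6 TPM in replicate 2, Phc1 21.7 and 23.6 TPM, and Phc3 6.47 and 6.56 TPM (3.89 TPM on complete coding transcripts). Phc2 exceeded Phc1 by 1.47-fold, more in replicate 1 than in replicate 2 (log2 of Phc1 over Phc2 -0.79 and -0.33). By expected counts the 2 genes were level, at a log2 ratio of -0.02, which was not past the spread. Both exceeded Phc3, by 5.05-fold and 3.43-fold. Phc3 was led by the retained-intron entry Phc3-207 in replicate 1 and by Phc3-209 in replicate 2.

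Phc2 (chr4:128654702-128752881, plus strand) starts at several places, and 86.8% ± 4.77 (SD, n = 2) of its TPM came from transcripts that begin between 128727581 and 128727982. The most upstream start gave 7.85% ± 2.97. These shares are sums of model estimates for transcripts and not a direct measure of start use. The 250 bases before each of these starts, as RefSeq gives them for GRCm38.p6, are shown because the estimated shares differed. Capitals mark CG dinucleotides, the sites of DNA methylation. The upstream window holds 13 CG and the downstream window 34, a number reached by 3.53% of all windows.
Phc2 upstream, chr4:128654452-128654701, plus strand: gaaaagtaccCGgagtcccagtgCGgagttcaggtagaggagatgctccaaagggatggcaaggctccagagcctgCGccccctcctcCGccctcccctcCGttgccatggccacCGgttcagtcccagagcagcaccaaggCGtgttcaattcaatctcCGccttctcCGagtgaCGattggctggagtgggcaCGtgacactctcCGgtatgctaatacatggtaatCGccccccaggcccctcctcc
Phc2 downstream, chr4:128727321-128727570, plus strand: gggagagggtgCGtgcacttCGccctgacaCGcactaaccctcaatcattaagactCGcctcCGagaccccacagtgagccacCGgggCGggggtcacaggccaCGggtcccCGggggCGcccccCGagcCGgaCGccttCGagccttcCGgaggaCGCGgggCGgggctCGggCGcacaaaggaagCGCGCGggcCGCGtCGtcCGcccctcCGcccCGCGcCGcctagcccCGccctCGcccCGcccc

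The KMT2 methyltransferases, which place methyl groups on lysine 4 of H3, lay close together as summed genes. Kmt2a (MLL1) measured 13.0 and 12.1 TPM, Kmt2b (MLL2), the lowest of its role group, 9.11 and 10.5 TPM, Kmt2c (MLL3) 11.4 and 12.4 TPM and Kmt2d (MLL4) 12.3 and 12.3 TPM. Neither Kmt2a over Kmt2b (1.28-fold) nor Kmt2d over Kmt2c (1.03-fold) was past the spread. Their transcripts differed. Kmt2b was led by Kmt2b-207, a retained-intron entry of 571 nucleotides with 41.6% and 51.9% of the gene, and Kmt2c by the truncated Kmt2c-208 with 51.8% and 54.4%. Kmt2d-201, of 19823 nucleotides, held 98.1% and 80.1% of Kmt2d. On complete coding transcripts Kmt2d exceeded Kmt2c by 3.93-fold and Kmt2a exceeded Kmt2b by 2.77-fold, both past the spread, at mean levels of 12.1, 3.01, 6.48 and 2.28 TPM for Kmt2d, Kmt2c, Kmt2a and Kmt2b. Kmt2a was led by the truncated Kmt2a-203 in replicate 1 and by the complete Kmt2a-201 in replicate 2.

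The subunits shared by all KMT2 complexes were higher than the enzymes. Ash2l, the highest of the group, measured 94.5 and 93.4 TPM and Wdr5 52.8 and 52.0 TPM. Dot1l, the methyltransferase for lysine 79 of H3, measured 16.9 and 16.04 TPM (8.54 TPM on complete coding transcripts). The lysine 27 demethylases differed: Kdm6b (JMJD3) measured 40.9 and 39.4 TPM and Kdm6a (UTX) 14.3 and 16.3 TPM, a ratio of 2.61-fold past the spread and 3.05-fold on complete coding transcripts. Kdm6b-201 held 96.3% and 96.2% of Kdm6b. Uty, the Y-linked relative of the X-linked Kdm6a, measured 14.2 and 12.5 TPM in these pools of both sexes.

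**Figure D2:**
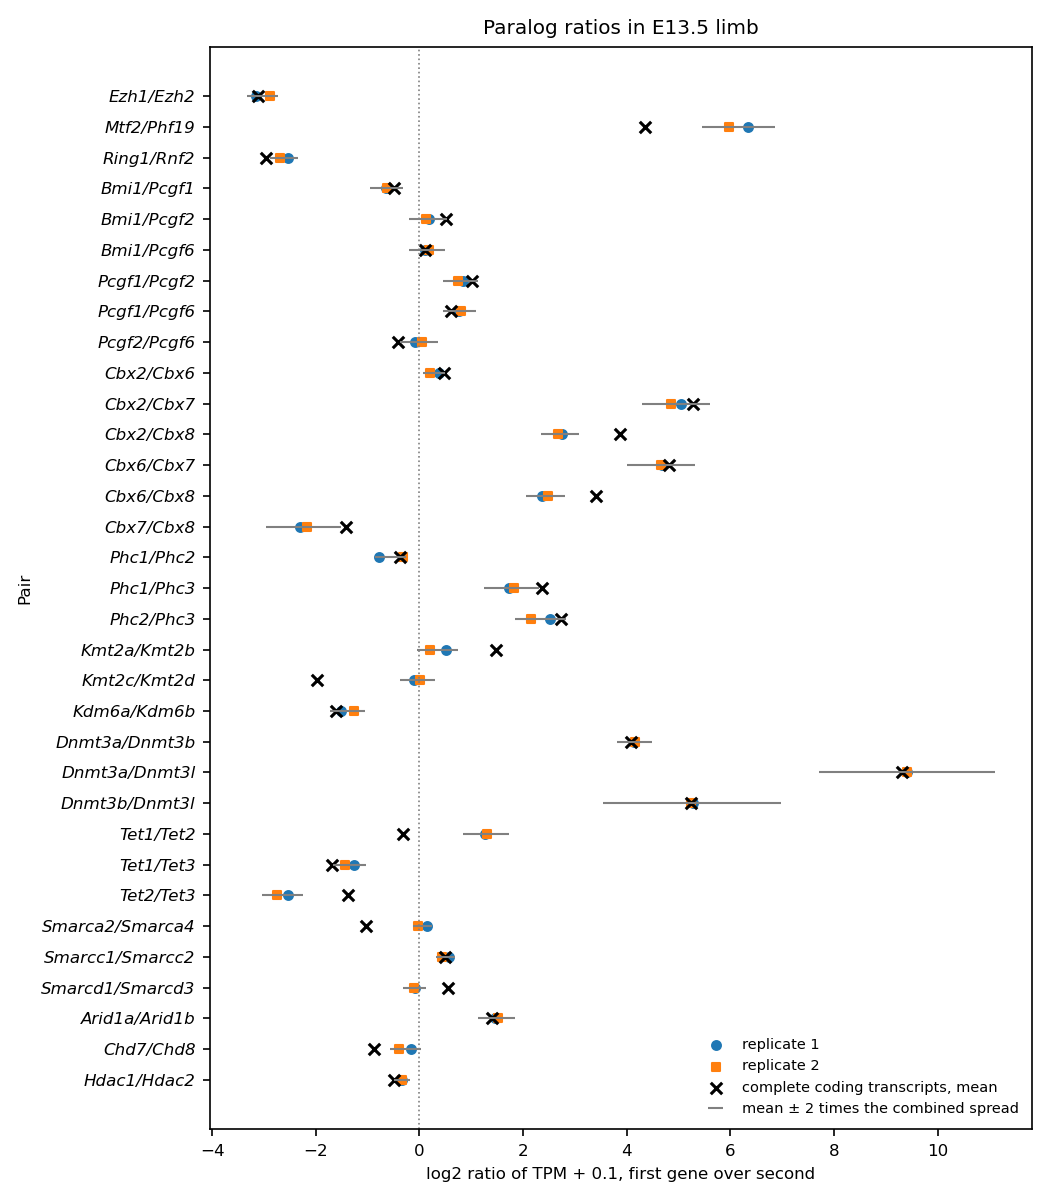
Log2 ratio of TPM + 0.1 for the 33 paralog pairs, first gene over second, with a circle for replicate 1, a square for replicate 2, a grey line for the mean ± 2 times the combined spread, and a cross for complete coding transcripts. Crosses lie well away from the points for Mtf2/Phf19, Kmt2a/Kmt2b, Kmt2c/Kmt2d, Tet1/Tet2, Tet2/Tet3, Cbx2/Cbx8, Cbx6/Cbx8 and Smarca2/Smarca4, and the widest lines belong to the pairs with Dnmt3l.

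The DNA methyltransferases set Dnmt3a far above its paralogs. Dnmt3a, a de novo methyltransferase (chr12:3806007-3914443, plus strand), measured 164 and 162 TPM, with 13014 and 18233 expected counts, the most of any regulator here. Dnmt3b, the other de novo enzyme, measured 9.20 and 8.96 TPM. The ratio was 17.8-fold (log2 4.15 ± 0.02, SD, n = 2), and it was 16.9-fold on complete coding transcripts. Dnmt3l, the cofactor without catalytic activity known from germ cells, was listed at 0.14 TPM in both libraries on 2 and 4 expected counts. Against these 6 counts Dnmt3b had 1479 counts, a ratio of 247 (exact binomial 95% interval 113 to 673, covering counting error only), and Dnmt3a had 31247, a ratio of 5208 (2392 to 14192). These are ratios of counts with no correction for length. Effective lengths in replicates 1 and 2 were 705 and 1014 for Dnmt3l, 3377 and 3356 for Dnmt3b, and 3817 and 4064 for Dnmt3a. The deposited credibility interval of Dnmt3l, 0.21 to 1.84 TPM in replicate 1 and 0.20 to 1.41 TPM in replicate 2, lay above its own estimate. Folds in that estimate are therefore not given. With the deposited posterior means, which are in TPM, the log2 ratio over Dnmt3l was 3.36 for Dnmt3b and 7.50 for Dnmt3a. The leading transcript of Dnmt3b was Dnmt3b-206, with 43.7% and 63.8% of the gene, and that of Dnmt3l was Dnmt3l-203.

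Dnmt3a is transcribed from an upstream start and from an internal start, the latter being that of the shorter DNMT3A2 protein known from embryonic stem cells. In both libraries Dnmt3a-205, which begins at the internal start, led with 80.0 and 79.3 TPM, 48.9% of the gene in each. Transcripts beginning between 3891728 and 3891744 held 59.2% ± 0.04 of the gene's TPM and those beginning between 3806007 and 3807160 held 34.4% ± 2.90 (SD, n = 2). By expected counts the order was the other way, 41.6% ± 1.89 internal and 57.4% ± 1.82 upstream. The order of the 2 starts thus depends on whether counts are divided by transcript length. The windows before them are shown so that the 2 promoters can be compared. With 38 CG the upstream window is denser than the internal one with 15.
Dnmt3a upstream, chr12:3806730-3806979, plus strand: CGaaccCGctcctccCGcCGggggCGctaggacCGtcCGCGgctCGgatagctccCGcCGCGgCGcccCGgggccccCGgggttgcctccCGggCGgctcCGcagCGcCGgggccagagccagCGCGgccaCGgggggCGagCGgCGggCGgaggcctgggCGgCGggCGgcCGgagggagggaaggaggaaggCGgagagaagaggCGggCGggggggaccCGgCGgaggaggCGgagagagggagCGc
Dnmt3a internal, chr12:3891494-3891743, plus strand: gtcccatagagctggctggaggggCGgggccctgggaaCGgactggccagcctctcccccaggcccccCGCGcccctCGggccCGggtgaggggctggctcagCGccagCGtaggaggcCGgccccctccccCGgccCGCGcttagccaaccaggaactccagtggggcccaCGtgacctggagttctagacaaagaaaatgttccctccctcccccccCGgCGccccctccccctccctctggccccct

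The maintenance methyltransferase Dnmt1 (chr9:20907209-20959888, minus strand) measured 69.2 and 75.1 TPM, and Uhrf1, which guides DNMT1 to hemimethylated DNA, 113 and 121 TPM. Dnmt1-201 held 67.5% and 69.7% of Dnmt1. Dnmt1-202, which begins farther upstream at 20959888, held 30.9% and 28.0%. For Dnmt1 the shares by expected counts differed little, at 28.9% ± 1.98 for the upstream start (SD, n = 2). Uhrf1-204 led in both libraries with 57.1% and 55.8%. The windows before the starts of Dnmt1-202 and Dnmt1-201 follow, shown for their low numbers of 2 and 7 CG. Another window, before the start of Dnmt1-203, holds 26 CG and is not shown. That start, at 20952623, falls in the same start group as that of Dnmt1-201, at 20952979. The 2 windows shown therefore do not stand for the whole promoter region of Dnmt1.
Dnmt1 upstream, chr9:20959889-20960138, minus strand: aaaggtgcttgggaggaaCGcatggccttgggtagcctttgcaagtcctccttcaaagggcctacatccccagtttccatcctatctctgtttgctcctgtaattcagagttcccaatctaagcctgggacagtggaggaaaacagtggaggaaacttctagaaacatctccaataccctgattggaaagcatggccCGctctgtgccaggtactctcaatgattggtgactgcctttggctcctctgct
Dnmt1 main, chr9:20952980-20953229, minus strand: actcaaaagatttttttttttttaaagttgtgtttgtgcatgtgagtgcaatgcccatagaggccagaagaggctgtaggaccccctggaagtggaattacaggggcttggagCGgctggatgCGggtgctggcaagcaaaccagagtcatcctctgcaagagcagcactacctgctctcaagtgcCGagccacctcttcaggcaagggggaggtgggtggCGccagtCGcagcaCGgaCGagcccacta

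**Figure D3:**
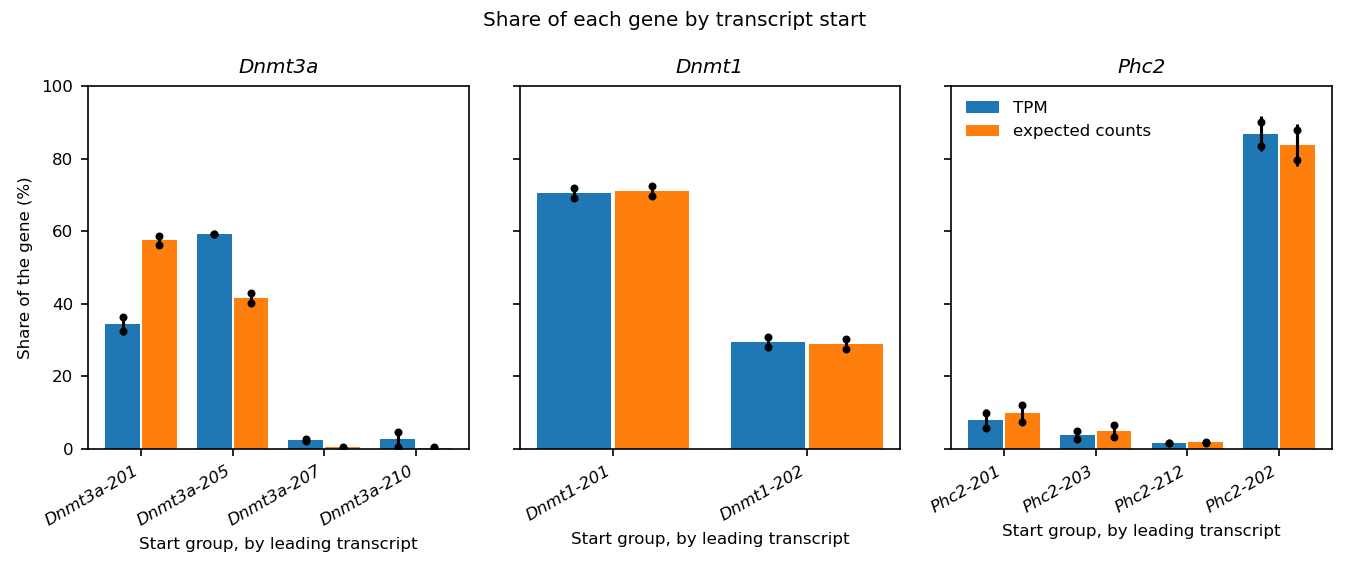
Share of Dnmt3a, Dnmt1 and Phc2 by group of transcript starts, named by the leading transcript, in percent of TPM (blue) and of expected counts (orange); bars are means, lines SD and dots the 2 libraries, and groups under 1% of TPM are left out. The leading start of Dnmt3a changes between the scales (59.2% of TPM but 41.6% of counts for the internal start), while those of Dnmt1 and Phc2 do not.

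Promoter windows of this kind were matched for 44 of the 54 regulators, 57 windows in all. Their median was 22 CG, from 1 before an alternative start of Phc2 to 51 before Tet2, and the median over 32851 windows of all genes was 6. At least 20 CG (the letters CG, which read the same on both strands) stood in 61.4% of the windows of regulators and in 17.9% of all windows. The windows of all genes include those of genes under 1 TPM here, and the part of this in the difference was not tested.

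The TET dioxygenases, which oxidise methylated cytosine, were ordered Tet3, Tet1, Tet2 as summed genes. Tet3 measured 40.3 and 49.7 TPM, Tet1 16.7 and 18.2 TPM and Tet2 6.89 and 7.34 TPM. Tet3 exceeded Tet1 by 2.56-fold and Tet2 by 6.21-fold, and Tet1 exceeded Tet2 by 2.43-fold, all past the spread. Tet2 has a single transcript entry. Tet1 was led by Tet1-202, a non-coding entry of 1505 nucleotides with 44.0% and 44.5% of the gene, and Tet3 by the non-coding Tet3-201 in replicate 1 and the 469-nucleotide coding fragment Tet3-204 in replicate 2. On complete coding transcripts Tet3 stood at 18.6, Tet2 at 7.12 and Tet1 at 5.71 TPM, Tet3 over Tet2 was 2.58-fold, and Tet1 over Tet2 turned to a log2 ratio of -0.31, which was not past the spread.

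In the SWI/SNF (BAF) remodeller the ATPases were level as summed genes. Smarca2 (BRM) measured 83.9 and 81.6 TPM and Smarca4 (BRG1) 76.2 and 82.8 TPM, a 1.04-fold difference that was not past the spread and changed sign between the libraries. Their transcripts differed: Smarca2-201, complete, held 32.3% and 38.1% of Smarca2, and Smarca2-215, an entry annotated for nonsense-mediated decay, held 34.2% and 30.2% and led in replicate 1. Smarca4-204 held 72.1% and 73.0% of Smarca4. On complete coding transcripts Smarca4 exceeded Smarca2 by 2.04-fold (log2 of Smarca2 over Smarca4 -1.03), past the spread, with 75.6 and 82.4 TPM against 38.7 and 38.5 TPM. By expected counts the log2 ratio was -0.70.

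Of the scaffold subunits, Smarcc1 (BAF155), the highest SWI/SNF member, measured 94.0 and 99.3 TPM and Smarcc2 (BAF170) 63.6 and 73.3 TPM, a ratio of 1.41-fold. Smarcd1 (BAF60A) measured 42.0 and 41.7 TPM and Smarcd3 (BAF60C), known from heart and muscle, 44.8 and 45.0 TPM. Smarcd2, outside the list, stood above both at 68.8 and 69.0 TPM. This last pair was not past the spread, at 1.07-fold in favour of Smarcd3. On complete coding transcripts it turned to 1.46-fold in favour of Smarcd1, since those held 64.0% of Smarcd3 and 100% of Smarcd1. Arid1a (BAF250A), which defines the canonical BAF complex, exceeded its paralog Arid1b, the lowest member, by 2.79-fold, with 28.2 and 29.8 TPM against 10.3 and 10.4 TPM. Arid2, of the PBAF form, measured 24.2 and 24.4 TPM.

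Among the CHD remodellers, Chd4, an ATPase of the NuRD deacetylase complex, measured 76.5 and 71.3 TPM (50.3 TPM on complete coding transcripts). It was led by Chd4-203 in replicate 1 and Chd4-202 in replicate 2. Its paralog Chd3, outside the list, stood above it in summed TPM at 96.3 and 98.9 TPM. Chd7, whose loss in humans causes CHARGE syndrome, was the lowest of its role group at 20.4 and 20.2 TPM, and Chd8 stood at 22.7 and 26.5 TPM. The 1.21-fold difference was not past the spread over both libraries. The direction of this pair depended on the transcripts counted, with a log2 ratio of Chd7 over Chd8 of 0.38 on all coding transcripts and -0.88 on complete ones, at complete levels of 8.26 and 15.2 TPM. The truncated Chd7-203 held 54.6% and 57.4% of Chd7. The histone deacetylases Hdac2 and Hdac1 were the highest of all 54 regulators. Hdac2 measured 263 and 258 TPM and Hdac1 209 and 205 TPM, a ratio of 1.26-fold past the spread that held to the second decimal in log2 in both libraries (Hdac1 over Hdac2 -0.33 and -0.33).

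Ctcf, the zinc-finger protein that sets loop boundaries with cohesin, measured 116 and 115 TPM. The entry Ctcf-202, a non-coding transcript of 528 nucleotides, had 72.0 TPM in each library on 643 and 855 expected counts, and the complete Ctcf-201, of 3782 nucleotides, had 38.1 and 37.1 TPM on 2925 and 3785. Complete coding transcripts thus held 32.6% of Ctcf TPM. The cohesin ring subunit Rad21 measured 52.2 and 51.0 TPM and the cohesin loader Nipbl, the lowest of the 3, 17.9 and 17.8 TPM, each with a single transcript entry. With complete coding transcripts Rad21 at 51.6 TPM stood above Ctcf at 37.6 TPM, the other way round from the summed genes.

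Across families, 1 paralog held at least 75% of the TPM in 4 of 17 families, namely Ezh2, Mtf2, Rnf2 and Dnmt3a; the 75% limit was chosen after the values were seen. Kdm6b with 72.4% ± 2.37 and Arid1a with 73.7% ± 0.55 (SD, n = 2) lay just under it. Counted on complete coding transcripts there were 6 such families, with Kdm6b at 75.4% and Kmt2d at 80.1% added. By summed TPM the listed members of SMARCA, KMT2CD and SMARCD were the most even, with larger shares of 51.0%, 50.8% and 51.8%. Complete coding transcripts gave 67.1%, 80.1% and 59.3% there, and the most even pairs on that scale were HDAC12 with 58.4% and SMARCC with 58.6%.

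**Figure D4:**
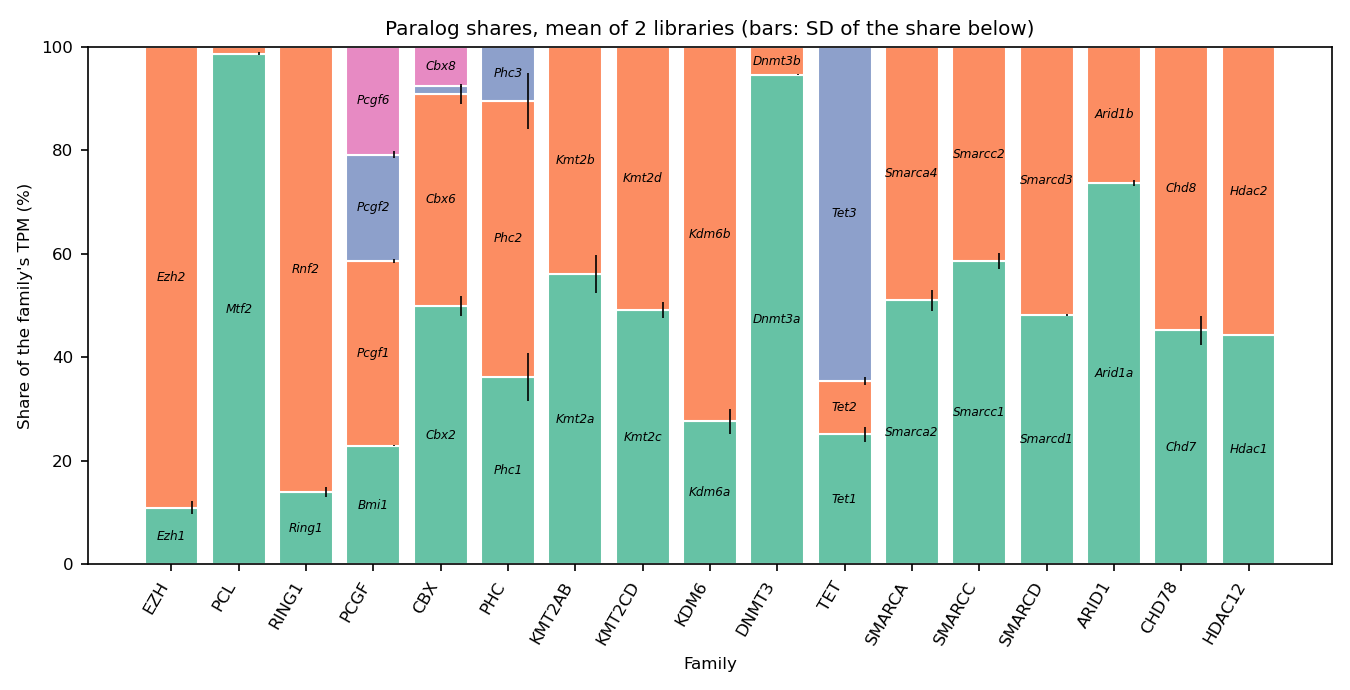
Share of each family's summed TPM held by its listed paralogs in percent, as the mean of 2 libraries, with thin black lines for the SD (n = 2) of the share below each boundary. Mtf2, Dnmt3a, Ezh2 and Rnf2 each fill over 75% of their bar, Smarca2 and Smarca4 split theirs at 51.0%, and shares under 5% (Phf19, Cbx7, Dnmt3l) carry no name.

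Of the 48 regulators with more than 1 transcript entry, the same transcript led in both libraries for 42 (87.5%), against 91.6% of detected protein-coding genes with several entries. The 6 with different leaders were Ezh1, Phc3, Kmt2a, Tet3, Smarca2 and Chd4. Ezh1-203 held 2.76% of Ezh1 in replicate 1 and 56.3% in replicate 2, where Ezh1-202 led in replicate 1, so transcript shares of Ezh1 are not stable between the libraries. Ezh2-201 held 61.3% and 63.2% of Ezh2. The leader was not annotated as protein-coding for 6 regulators (12.5%, against 10.3%), Cbx8, Phc3, Kmt2b, Tet1, Tet3 and Ctcf, and was a truncated coding entry for 4 (8.33%, against 3.18%), Mtf2, Kmt2a, Kmt2c and Chd7.

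Between the libraries most regulators differed by less than 1.25-fold. On counts scaled by the trimmed mean of M-values (TMM), 51 of the 53 with at least 10 counts on average lay within 1.25-fold (96.2%, against 83.2% of 17982 genes). These 2 shares are not matched on count. The spread was 1.05 in log2 at the lowest counts of the 17982 genes and 0.08 at a log2 mean count of 12.4. The difference of the shares is therefore not read as a trait of the regulators. Beyond 2 times the spread of genes of like count were 4 (7.55%, against 3.51% of all those genes and 3.84% of genes with 100 counts or more). Phc2 was lower in replicate 2, at a log2 ratio of -0.34, and Jarid2 (0.17), Cbx6 (0.18) and Smarcc2 (0.18) were higher. Phc2 was also the one regulator beyond 3 times the spread. On deposited TPM, where 3.24% of all genes were apart, Phc2 (-0.34) and Jarid2 (0.16) were within 2 times the spread and Cbx6, Smarcc2 and Tet3 beyond it, so the call of Phc2 ended while its ratio stayed. By these transcript estimates, the lower level of Phc2 in replicate 2 lay in the downstream start. It read 33.9 TPM in replicate 1 and 24.7 TPM in replicate 2, while the most upstream start read 2.16 and 2.94 TPM. Summed liver markers were also higher in replicate 1, as given above. Among the 8 limb mesenchyme markers, the forelimb gene Tbx5 read 25.2 and 36.5 TPM, the hindlimb genes Pitx1 90.4 and 73.8 TPM and Tbx4 24.4 and 20.9 TPM, and Msx1 226 and 281 TPM. The part of these markers in the differences between the libraries was not tested.

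**Figure D5:**
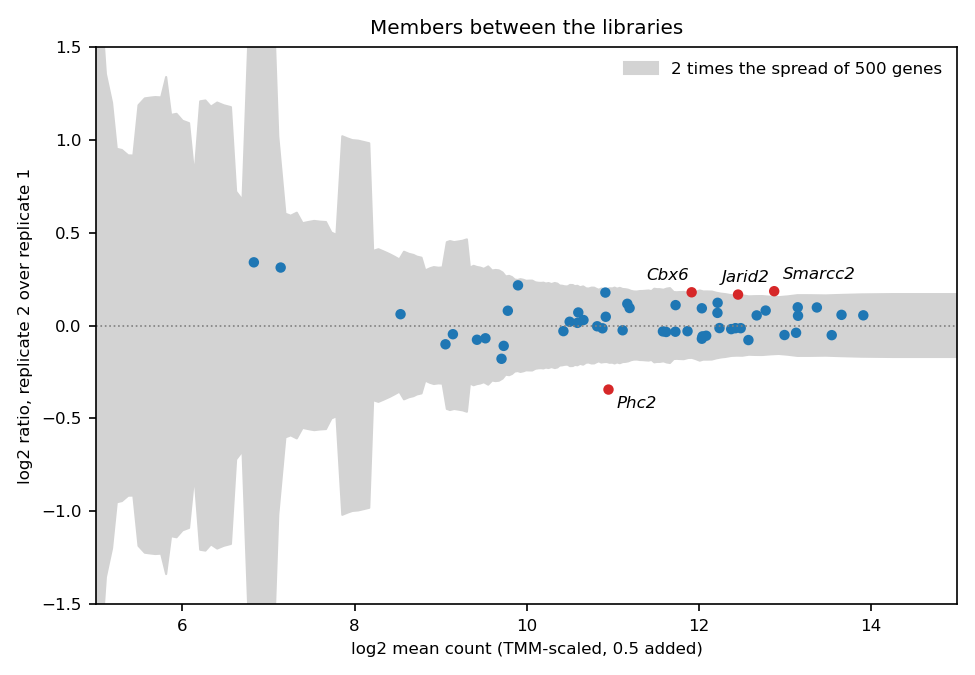
Log2 ratio of replicate 2 over replicate 1 against log2 mean count for the 53 regulators with at least 10 counts, with the grey band at 2 times the spread of 500 genes of like count. Phc2 lies below the band at -0.34, and Cbx6, Jarid2 and Smarcc2 (red) sit at or just above its upper edge.

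Partners outside the list, 97 genes of the same complexes, were detected in 92 cases at 1 TPM or more in both libraries. The same cut was met by 61.0% of protein-coding genes and by 34.6% of all genes. Since the partners were chosen as known regulators of chromatin, this count and the counts by group describe them and are not a test. Among 21 Polycomb partners 20 were detected, led by the histone chaperones Rbbp4 (414 and 406 TPM) and Rbbp7 (405 and 407 TPM), and Scml4 fell short with 0.81 TPM in replicate 1. All 14 trithorax and COMPASS partners were detected, with Dpy30, a core COMPASS subunit, at 163 and 153 TPM and Kdm5b, a lysine 4 demethylase, at 79.1 and 81.7 TPM. All 13 partners in DNA methylation were detected, with the corepressor Trim28 at 277 and 266 TPM and the NuRD subunit Mbd3 at 239 and 229.8 TPM.

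Of 15 SWI/SNF partners 14 were detected, with the core subunits Smarce1 at 284 and 269 TPM and Smarcb1 at 205 and 206 TPM, and the neuronal actin-related subunit Actl6b was at 0.77 and 0.19 TPM. Actl6a, its counterpart in dividing cells, read 141 and 139 TPM. Other SWI/SNF subunits known from neurons were detected. Dpf1 read 16.8 and 17.3 TPM, Dpf3 4.75 and 5.09 TPM and Ss18l1 4.98 and 5.42 TPM. Of 20 CHD, ISWI, INO80 and NuRD partners 19 were detected, with Mta2 of NuRD at 159.5 and 160.3 TPM and Hdac3 at 140.4 and 134 TPM, and Chd5, known from brain and testis, at 0.33 and 0.28 TPM. Of 14 cohesin and CTCF partners 12 were detected, with the ring subunits Smc1a at 93.2 and 95.4 TPM and Smc3 at 69.3 and 65.8 TPM. The meiotic cohesin subunit Smc1b read 0.11 and 0.14 TPM and Ctcfl, the testis paralog of Ctcf, 0.11 and 0.13 TPM. Other meiotic cohesin subunits in this group were detected, Stag3 at 6.87 and 7.93 TPM and Rec8 at 4.77 and 6.07 TPM.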

How the data were processed

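RNA of 2 biological replicates of limb was analysed. Per the file headers and the text deposited with them, the tables use the mm10 assembly and GENCODE M4; no source used here gives the aligner, quantifier or strand setting, so reads of overlapping or antisense genes cannot be told apart. The authors deposited, for genes and transcripts, expected counts (model estimates, rounded here before scaling), TPM with credibility bounds and posterior means, FPKM, and transcript shares in percent of the gene.

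Symbols came from a gene name table (42462 matched, 98.0%). Transcript types came from GENCODE M21, a later release on the same assembly, and 2 of 362 transcripts of the genes described were not in it. Levels, ratios and the spread of 500 genes used TPM with 0.1 added, in Python 3.11.15 with numpy 2.4.6 and pandas 2.3.3. Library ratios used TMM factors of edgeR 4.0.16 with 0.5 added, for genes of at least 10 mean counts; DESeq2 1.42.0 size factors and ERCC spike-ins were alternatives. The spread steps were run on simulated data with the same added replicate variation for every gene. Paired genes there shared a length, so effects of length and annotation were not covered. Transcripts whose starts lie within 2000 bases were grouped, and RefSeq windows were matched within 100 bases. A count of 3 equals 0.096 and 0.071 CPM at these depths.

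Genes, lists and settings were chosen with earlier results of these data known. Named genes are all members, the highest 2 related genes and those under 1 TPM in each group. Other related genes were chosen after their values were seen: Uty, Actl6a, Phf1, Pcgf3, Pcgf5, Smarcd2, Stag3, Rec8, Dpf1, Dpf3, Ss18l1 and Chd3. So were 4 limb markers and some transcripts. Transcripts are those of a listed set and of members whose leader differs between libraries.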

Additional observations from a re-analysis of the deposited data

How the results depend on the processing

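Between 51 and 53 regulators were detected with thresholds of 0.5 and 2 TPM, FPKM, posterior means or coding transcripts alone, and the pairs past the spread numbered 23 to 31. Leaving out 1 library gave 53 to 53 regulators detected, 92 to 93 related genes, 25 to 26 pairs, 4 to 4 families with 1 paralog at 75% or more, and 51 to 51 regulators whose leading transcript in that library was the one leading on the mean. Of the 33 pairs, 18 kept sign and call under every alternative, and 9 changed sign under at least 1. By expected counts the log2 ratio was 1.54 for Bmi1/Pcgf1, -0.087 for Pcgf1/Pcgf2, -0.68 for Pcgf1/Pcgf6, -0.70 for Smarca2/Smarca4 and 1.08 for Smarcd1/Smarcd3, a scale with no correction for length. On it 5 more pairs kept their sign but were no longer past the spread: Cbx2/Cbx6, Phc1/Phc2, Tet1/Tet2, Smarcc1/Smarcc2 and Hdac1/Hdac2. On coding transcripts it was -0.81 for Smarca2/Smarca4, 0.54 for Smarcd1/Smarcd3 and 0.38 for Chd7/Chd8. On complete coding transcripts, an alternative chosen after seeing the data, it was -0.31 for Tet1/Tet2, -1.03 for Smarca2/Smarca4 and 0.54 for Smarcd1/Smarcd3. Pairs that became past the spread with the same sign were Bmi1/Pcgf2, Kmt2a/Kmt2b, Kmt2c/Kmt2d and Chd7/Chd8 by expected counts, Bmi1/Pcgf2, Pcgf2/Pcgf6 and Kmt2a/Kmt2b on coding transcripts, and these 5 pairs on complete ones. Pcgf2/Pcgf6 turned to 0.021 with posterior means. With 1 library left out Pcgf2/Pcgf6 ran from -0.081 to 0.048, Kmt2c/Kmt2d from -0.111 to 0.016 and Smarca2/Smarca4 from -0.021 to 0.138, with the sign changed without replicate 1, and these pairs were not past the spread. Regulators apart between the libraries numbered 4 under every scaling of counts, 3 on TPM (Cbx6, Tet3 and Smarcc2, with Phc2 and Jarid2 lost at ratios of -0.34 and 0.16), 1 at 3 times the spread (Phc2) and 0 at more than 1.5-fold. That count needs both libraries, so none could be left out. No paired analysis was possible because the series has 1 group. Depth limits Dnmt3l (6 counts in all), and the spread around 100 counts, where Phf19 and Cbx7 lie, is wide.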
